A study of Homo sapiens with 2 samples.

Results

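The chromatin remodeler genes were described in a map of RNA sites bound by DDX18, a nucleolar helicase of the DEAD-box family, in human embryonic stem cells. They are the protein-coding genes whose symbols are CHD with a digit, or start with SMARC or ARID, together with BPTF, BAZ1A, BAZ1B, BAZ2A, BAZ2B, INO80, EP400, SRCAP and ATRX. The RefSeq gene table holds 43 such genes, and 34 of them had an entry in the peak list. These carried 133 of the 17163 entries of the list, and 16079 entries lay in protein-coding genes of any kind. An entry is a stretch of RNA in which crosslinked reads piled up to a deposited height, called within a named gene.

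The list came from iCLIP, in which ultraviolet light crosslinks a protein to the RNA it touches and the RNA recovered with that protein is sequenced. Cells of the H9 line with 3XFlag-DDX18 expression were kept under normal culture on irradiated mouse embryonic fibroblasts and irradiated at 254 nm with 160 mJ/cm2. DDX18 was then recovered with an anti-Flag antibody. Both samples, replicates 1 and 2, formed 1 group that shares 1 list, so no value has an error between samples, and reads per sample are unknown here. No untagged or input library was used here, and the labels say neither how the tagged protein was expressed nor whether the replicates came from separate cultures.

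Chromatin remodelers are ATP-driven machines that slide, evict or exchange nucleosomes. They fall into families by their ATPase. SWI/SNF enzymes open chromatin, ISWI enzymes space nucleosomes, CHD enzymes carry chromodomains and include the ATPase of the repressive NuRD complex, and INO80 and SWR1 type enzymes act on the histone variant H2A.Z. In embryonic stem cells the SWI/SNF and NuRD complexes are known to take part in keeping and leaving pluripotency.

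Remodeler genes were listed with a peak at a higher share than protein-coding genes as a whole, and more often with several. An entry was called in 34 of 43 members (79.1%, exact 95% binomial interval 64.0 to 90.0), beside 31.0% of all 20056 protein-coding genes. At least 3 entries were called in 19 members (44.2%, 29.1 to 60.1), beside 8.51% of all genes, and at least 10 in CHD4, SMARCC1, SMARCA4 and BPTF, beside 1.14%. For at least 2 entries the shares were 55.8% (24 members) and 14.7%, and for at least 5 they were 16.3% (7 members) and 3.66%. Intervals cover counting error only, and because the members were proposed with results of this list known, these shares are a description with no test. The members are long genes, with a median span of 78.5 kb against 24.1 kb. Among protein-coding genes at least as long as that median, 55.3% had an entry, and 19 of the 22 members of that length did (86.4%, 65.1 to 97.1). RNA abundance is not in the list, and its part in these shares was not tested.

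Members with an entry had more entries than protein-coding genes with an entry as a whole, when entries were taken by the gene in which they were called. These members had a median of 3 entries, against 1 in all protein-coding genes with an entry. When each position was assigned to the gene of the nearest start site instead, both medians were 1, and 51.2% of members had an entry beside 29.2% of all protein-coding genes. Their heights ran from 4 to 78 with a median of 8 (quartiles 6 and 11), and the median over all protein-coding entries was also 8 (quartiles 6 and 12). Per gene, the highest entry had a median of 9 in members with an entry, beside 7 in all protein-coding genes with an entry. A highest entry of 10 or more was found in 16 of 43 members (37.2%, 23.0 to 53.3), beside 8.78% of all protein-coding genes. A deposited p-value at its lower limit of 1e-100 was given for 16 member entries (12.0%), beside 15.3% of all protein-coding entries. Entries were narrow, with a median width of 10 nt in the members and 13 nt overall.

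**Figure D1:**
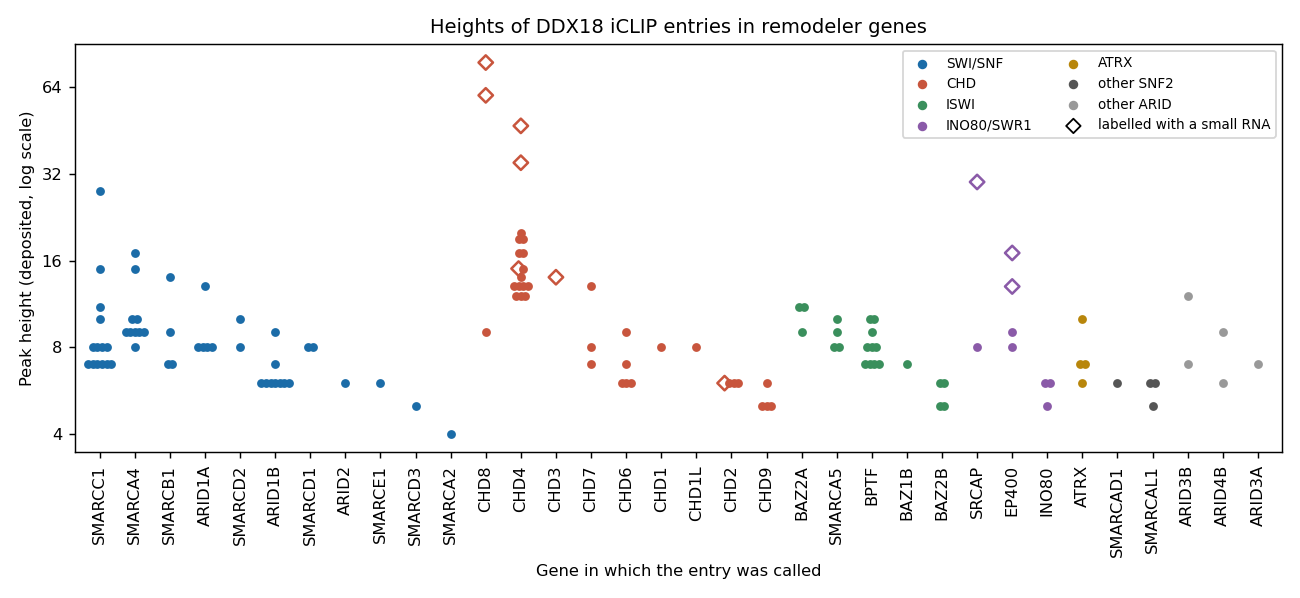
Height of each of the 133 entries (vertical axis, log scale) by the gene in which it was called, coloured by family and sorted within each family by highest entry; open diamonds mark entries labelled with a small RNA. Most points lie near the median of 8, and the 5 highest, from 30 to 78, are diamonds in CHD8, CHD4 and SRCAP.

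The highest entries of the remodeler genes lay at small nucleolar and small Cajal body RNAs that are encoded inside them. These RNAs guide chemical modification of rRNA and spliceosomal RNAs and are cut from the introns of host genes. In all, 10 entries in 6 members carried the label of a small RNA, which is 7.52% of member entries and 22.5% of their summed height. In all protein-coding genes such labels covered 2.35% of entries. They covered 6.19% of the height there, but a single entry without such a label gave 76702 of the summed height of 646036, so the shares of height are not comparable. By the deposited distance from the start of the small RNA, 7 of the 10 overlapped it, with heights from 13 to 78 and a median of 35. Entries without such a label reached 28 at most, in an intron of SMARCC1, again with a median of 8, and 33 of 43 members (76.7%, 61.4 to 88.2) had at least 1 of them, beside 30.6% of all protein-coding genes.

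CHD8, a chromodomain ATPase, hosts the C/D box RNAs SNORD8 and SNORD9 and had the highest entries of all members. The entry of height 78 (chromosome 14, 21865471 to 21865472, minus strand, hg19) was centred 89 nt from the start of SNORD8, which is 109 nt long, and was also listed under SNORD8 itself. The entry of height 60 at position 21860349 lay 63 nt into SNORD9, of 103 nt. The only other entry in CHD8 had a height of 9 and was labelled with the transcript end of CHD8. Without the small RNA labels, the highest entry of CHD8 was thus at the median of 9 for members with an entry. Its number of entries, 1, was below their median of 3.

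CHD4 hosts SCARNA11, a Cajal body RNA of 137 nt, and entries of height 35 and 47 lay 37 nt and 116 nt from its start (chromosome 12, positions 6690738 and 6690659, minus strand). A lower entry of height 15 with the same label was centred 285 nt from the start, past the end of the RNA. In SRCAP, an ATPase that exchanges H2A.Z, the entry of height 30 was centred 116 nt into the H/ACA box RNA SNORA30, of 129 nt, and was also listed under SNORA30. EP400, a related ATPase of the TIP60 complex, had entries of height 13 and 17 at 37 nt and 122 nt of SNORA49, an H/ACA box RNA of 137 nt. Where a small RNA held a pair of entries, as in SCARNA11 and SNORA49, the higher lay nearer the 3' end.

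CHD3 and CHD2 had a small RNA label on an entry that did not overlap the small RNA. The only entry in CHD3 had a height of 14 and was centred 169 nt from the start of SCARNA21, which is 138 nt long. A CHD2 entry of height 6 was centred 267 nt from the start of the microRNA gene MIR3175, which is 77 nt long. Of the 7 named snoRNA and scaRNA genes that the gene table places inside members, 6 had a labelled entry. SNORD146 inside SMARCC1 had none, and whether any SMARCC1 entry, the intronic entry of height 28 among them, overlaps it was not examined, because the table and the peaks use different genome builds.

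By family, SWI/SNF and CHD genes held most of the entries, with 50 and 39 of 133. An entry was called in 11 of 12 SWI/SNF genes (91.7%, 61.5 to 99.8), 9 of 10 CHD genes (90%, 55.5 to 99.7), 5 of 7 ISWI genes (71.4%, 29.0 to 96.3) and all 3 of the INO80/SWR1 ATPases. ATRX, SMARCAD1 and SMARCAL1 each had at least 1. The other ARID genes, which are mostly DNA-binding factors or subunits of histone deacetylase complexes, had one in 3 of 7 (42.9%, 9.90 to 81.6). The intervals of the families overlap one another, and differences in share between families were not tested. Per 100 kb of gene span there were 3.73 entries in SWI/SNF, 3.20 in CHD, 2.38 in ISWI, 2.90 in INO80/SWR1 and 0.882 in the other ARID genes, beside 1.24 in all protein-coding genes.

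**Figure D2:**
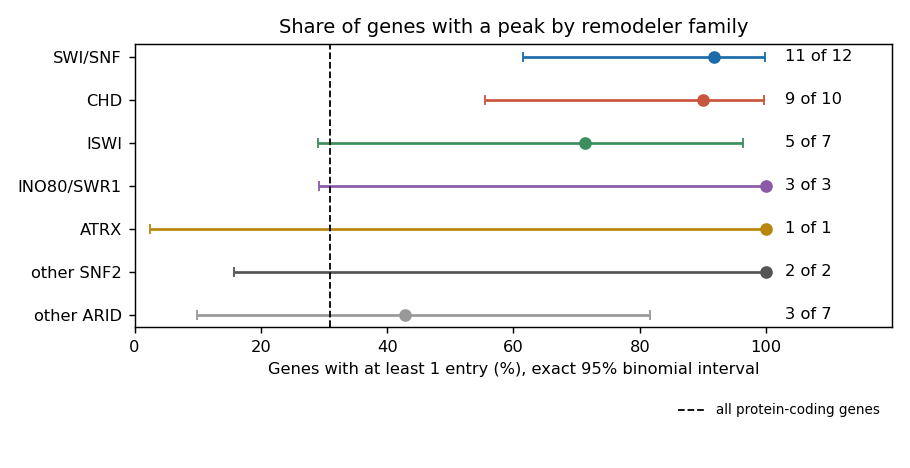
Share of the genes of each family with at least 1 entry (horizontal axis, percent), with exact 95% binomial intervals and the counts at the right; the dashed line is the 31.0% of all protein-coding genes. Intervals of SWI/SNF and CHD lie above the line, and those of the smaller families cross it.

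Within SWI/SNF, entries were concentrated in a few subunits and differed widely between paralogs. SMARCA4 (BRG1), the ATPase, had 10 entries, of heights 17, 15, 10, 10, 9, 9, 9, 9, 9 and 8, all in coding exons. Its paralog SMARCA2 (BRM) had 1, of height 4, in intron 23 of 32. SMARCC1 (BAF155), a scaffold of the core, had 14 entries with a highest of 28, and no entry was listed for its paralog SMARCC2 (BAF170). In mouse embryonic stem cells the complex is known to be built with the SMARCA4 and SMARCC1 proteins rather than with SMARCA2 and SMARCC2. The list holds neither protein nor RNA levels of the human H9 cells, and a link to these entry counts was not tested.

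The SMARCC1 entries were spread over the transcript, with 9 in coding exons from 2 to 27 of 28, 4 in the 3' UTR and 1 in intron 20 of 27. The intronic entry was the highest (28, chromosome 3, 47703081 to 47703088, minus strand), and its overlap with SNORD146 was not examined. It was followed by 15 in exon 18, 11 in exon 27 and 10 in exon 6. The other 10 had heights of 7 or 8. Those in the 3' UTR lay within 1984 nt.

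ARID1A and ARID1B, which define the canonical BAF complex, had 5 and 9 entries. ARID1A entries had heights of 13, 8, 8, 8 and 8, with 4 in coding exons 8, 10 and 18 of 20 and 1 in the 3' UTR. ARID1B entries were lower, from 6 to 9, and 4 of its 9 lay in introns, 3 of them in intron 5 of 19 over 63637 nt. ARID2, which defines the PBAF complex, had 1 entry of height 6 in intron 3 of 20. SMARCB1, a core subunit, had heights of 14, 9, 7 and 7, and its highest lay in coding exon 6 of 9. SMARCD2 had heights of 10 and 8, SMARCD1 of 8 and 8, SMARCD3 of 5 and SMARCE1 of 6, with the lower SMARCD2 entry at the annotated end of the neighbouring gene PSMC5.

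Among CHD genes, CHD4, the main NuRD ATPase, stood apart. It had 17 entries, 12.8% of all member entries and 21.9% of their height, and 86 of all 20056 protein-coding genes had at least as many. Outside the SCARNA11 label its heights ran from 12 to 20, with 13 entries in 12 of 39 exons and 1 of height 17 in the 3' UTR. The highest coding entries were those of 20 in exon 15 and of 19 in exons 8 and 16. Its paralog CHD3 had the single entry past the end of SCARNA21, and CHD5, which is known as a neuronal member, had none.

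The other CHD genes had fewer entries than CHD4, and without the small RNA labels their heights ran from 5 to 13. CHD6 had 5, of heights 9, 7, 6, 6 and 6, all in coding exons. CHD7 had 3, of heights 13, 8 and 7, in coding exons 12, 30 and 4 of 38. CHD2 had 4 of height 6, and CHD9 4 of heights 6, 5, 5 and 5, 3 of them intronic. CHD1, which recognises methylated histone H3 at active genes, had 1 of height 8 in its 5' UTR, and CHD1L 1 of height 8 in exon 4 of 23. The CHD1L entry was called in another gene too, and with positions called in 1 gene only, 8 CHD genes had an entry. The median height of CHD entries was 12, above the 8 of SWI/SNF and ISWI, but without CHD4 and the small RNA labels it was 6 over 18 entries.

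BPTF, the large subunit of the NURF complex, led the ISWI family with 10 entries of nearly even height (10, 10, 9, 8, 8, 8, 7, 7, 7 and 7). They were grouped, with 3 within 530 nt of exon 2, 4 within 1594 nt of exon 13 and 2 within 230 nt of exon 23, of 30 exons, and the other was intronic. SMARCA5 (SNF2H), the ATPase shared by several ISWI complexes, had heights of 10, 9, 8 and 8, all in coding exons, whereas its paralog SMARCA1 (SNF2L) had no entry. BAZ2A, a subunit of the NoRC complex that silences ribosomal DNA, had heights of 11, 11 and 9, with 2 in the 3' UTR and 1 in exon 22 of 29. BAZ2B had heights of 6, 6, 5 and 5 with 2 in introns, BAZ1B 1 of height 7 and BAZ1A none.

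INO80, the ATPase of its own complex, had heights of 6, 6 and 5. Outside the small RNAs EP400 had 9 in its 3' UTR and 8 in exon 15 of 53, and SRCAP 8 in exon 25 of 34, so 58.8% of the height of this family lay under a small RNA label. ATRX, which acts with DAXX to place histone H3.3 at repeats, had heights of 10 and 7 in the 3' UTR and 7 and 6 in exons 9 and 2 of 35. SMARCAL1, an enzyme of stalled replication forks, had heights of 6, 6 and 5, and SMARCAD1 6. ARID3B had heights of 12 and 7 in its 3' UTR, ARID4B 9 and 6, and ARID3A 7. The ARID4B entry of height 9 lay in an Alu repeat in an intron of RBM34 and was called in another gene too. Members with no entry were SMARCC2, CHD5, SMARCA1, BAZ1A, ARID3C, ARID4A, ARID5A, ARID5B and CHD9NB, a neighbour of CHD9 that meets the rule by its symbol alone.

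Remodeler entries lay mainly in coding exons. These held 79 of 133 (59.4%, 50.5 to 67.8), beside 47.4% of all protein-coding entries. A coding exon entry was found in 24 of 43 members (55.8%, 39.9 to 70.9), beside 15.8% of all protein-coding genes. Among genes with a coding entry only, there were 0.117 coding entries per annotated exon in the members (0.103 without CHD4), beside 0.151 in all protein-coding genes. These values leave out the exons of genes without a coding entry, so they cannot be set against the shares above. Introns held 18 (13.5%, 8.22 to 20.5) beside 17.8%, and 3' UTRs 17 (12.8%, 7.63 to 19.7) beside 19.0%. Labels of transcript ends (TTS) held 12 (9.02%, 4.75 to 15.2) beside 5.44%, and of start sites (promoter-TSS) 4 (3.01%, 0.825 to 7.52) beside 4.45%. Of these 16, 10 are the small RNA labels above. Without CHD4 the coding share was 56.9% (47.4 to 66.1), with its lower bound next to the 47.3% of all other protein-coding entries. In SWI/SNF it was 60%, in CHD 61.5% and in ISWI 72.7%, with overlapping intervals.

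**Figure D3:**
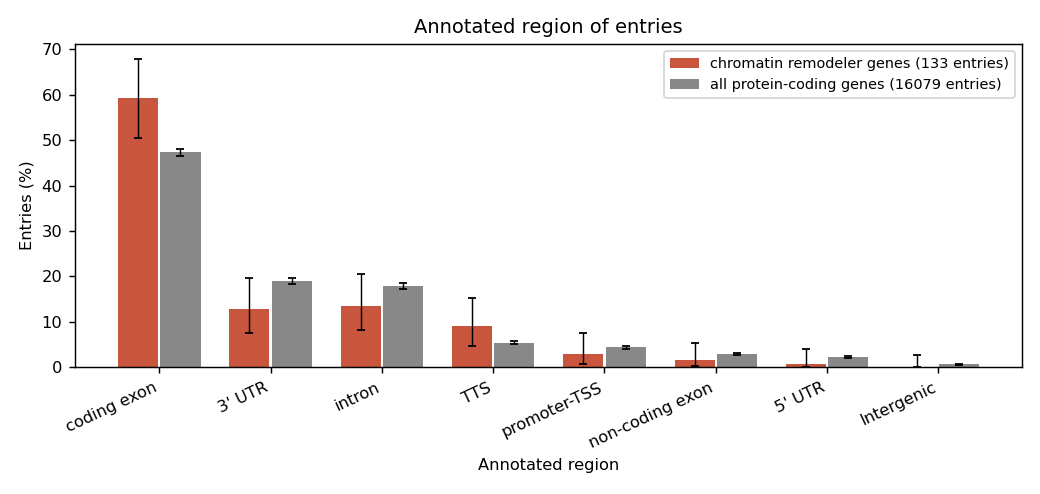
Percent of entries by annotated region (bars, with exact 95% binomial intervals) for the 133 remodeler entries and the 16079 entries of all protein-coding genes. Coding exons hold 59.4% of the remodeler entries and 47.4% of all, and no remodeler entry is intergenic.

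By exon order, the coding entries of the members did not lie mostly in the later exons. Entries in UTRs and at transcript ends are not part of this order. Coding entries were placed by exon number on a scale from 0 to 1, with each exon taken at the middle of its rank. The median coding entry of the members stood at 0.423, beside 0.500 in all protein-coding genes. Of the 79 in members, 32 lay in the later part of the scale (40.5% beside 47.0%). By family this share was 53.3% of 30 in SWI/SNF, 37.5% of 24 in CHD and 18.8% of 16 in ISWI, and these differences were not tested. SMARCA4 held consecutive entries in exons 15 to 19 of 36, with heights of 9, 8, 9, 9 and 10, and its highest in exon 25. In 11 places the same exon, intron or UTR of a member held several entries, 5 of them coding exons and 5 of them 3' UTRs. Of the 18 intronic entries, 6 lay in a named repeat, and the 17 apart from the SMARCC1 entry of 28 had heights of 9 or less. Neither the 11 places nor the 6 entries in repeats were set beside all protein-coding genes, so both counts describe the members only.

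**Figure D4:**
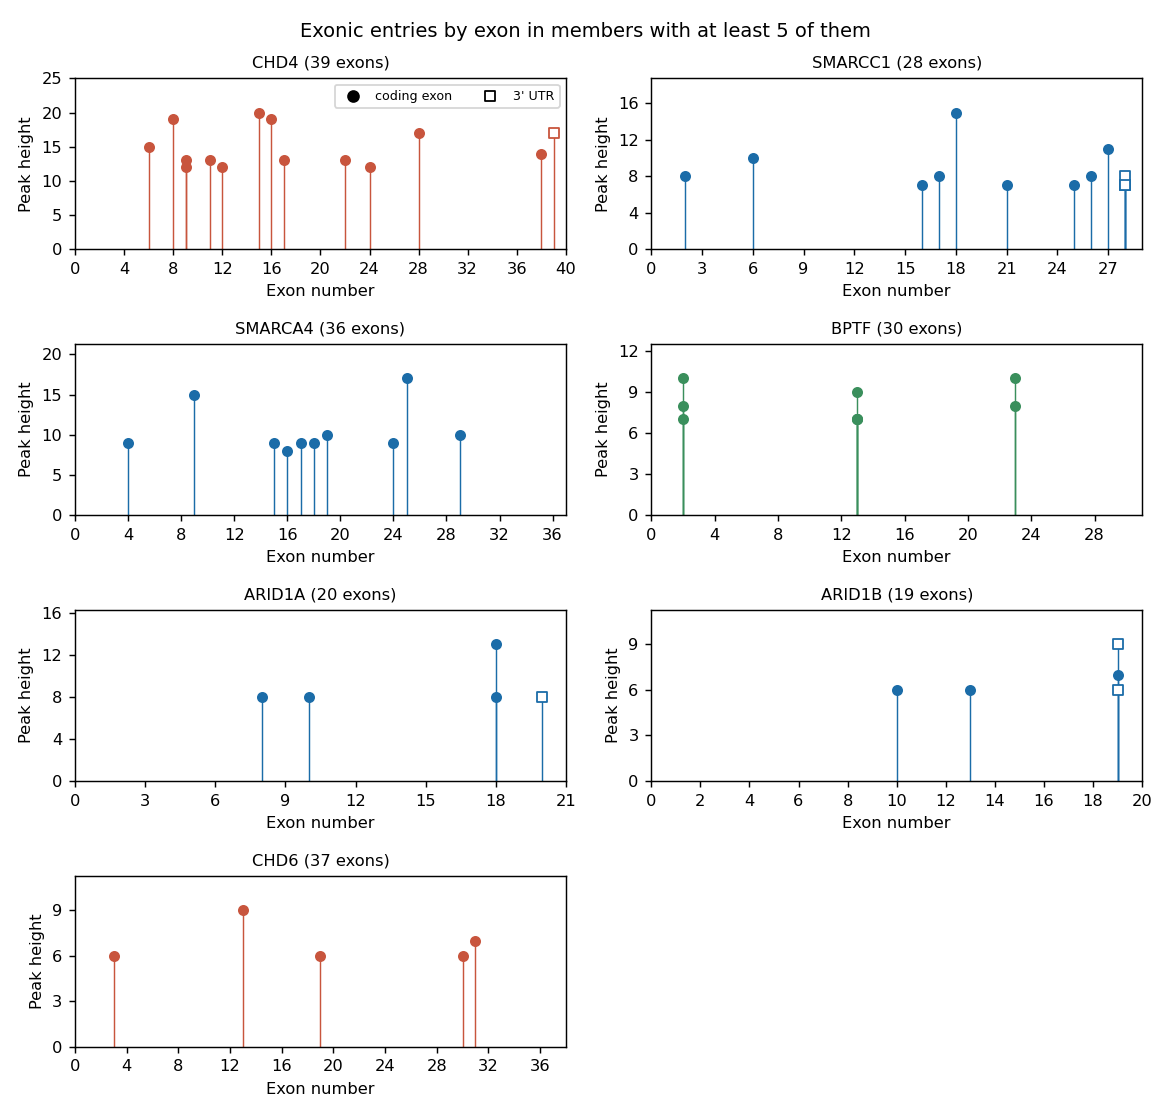
Height of each entry in coding exons (filled circles) and 3' UTRs (open squares) by exon number, for the 7 members with at least 5 such entries. CHD4, SMARCC1 and SMARCA4 have entries in many exons, whereas the 9 coding entries of BPTF fall in 3 exons.

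Each entry also carries an expected height, a value the authors deposited per gene, and how it was calculated is not given in the sources used here. It was highest in CHD4 (0.76), then CHD8 (0.3), SMARCD1 (0.25) and SMARCD2 (0.24), and lowest in SMARCA2 (0.01), with a median of 0.0700 over members and 0.0500 over all protein-coding genes with an entry. The lowest height listed in a gene followed it: 4 in SMARCA2, 5 in the 5 members at 0.02, and 12 in CHD4. Spearman's rho between these values was 0.884 over the 34 members and 0.774 over 5760 protein-coding genes, given as a description. Whether both values come from the same reads is not stated. The list holds no deposited p-value above 0.05, so the lowest listed height of a gene may be set by that limit. The relation may then be built in. The CHD4 entries were 15.8 to 61.8 times their expected height, and the 78 of CHD8 was 260 times its own.

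**Figure D5:**
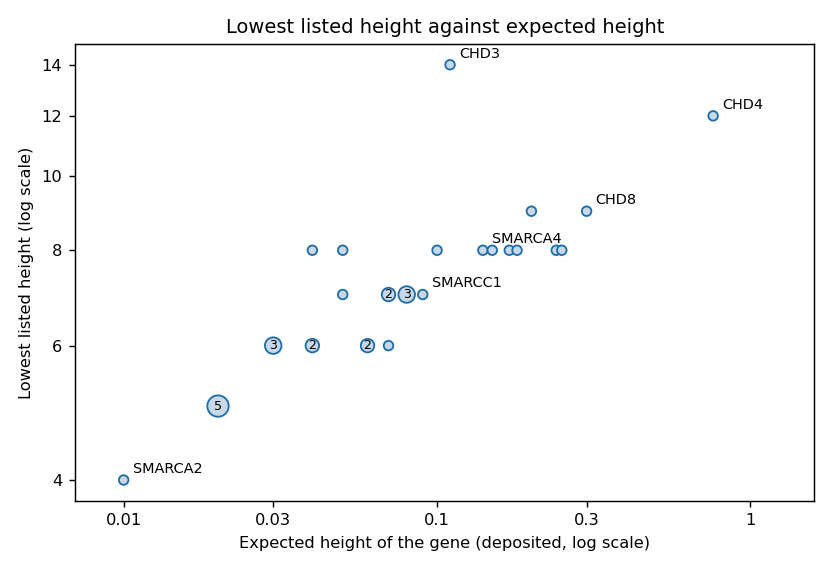
Lowest listed height (vertical axis) against expected height (horizontal axis), both on log scales, for the 34 members with an entry; larger circles with a number stand for several genes at the same values. The lowest height goes from 4 in SMARCA2 to 12 in CHD4, and CHD3, whose only entry is the 14 past the end of SCARNA21, lies above the rest.

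Other subunits of the same complexes and related enzymes were taken from a list of 77 partner genes, of which 43 had an entry (55.8%, 44.1 to 67.2), beside the 31.0% of all genes, and 15 had 3 or more. NuRD partners had one in 10 of 12, SWI/SNF partners in 10 of 18, ISWI partners in 3 of 5, INO80/SWR1 and TIP60 partners in 13 of 29 and further SNF2 enzymes in 7 of 12. DAXX, the partner of ATRX, had none.

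Around CHD4, the deacetylase HDAC2 had 8 entries with heights from 8 to 21. The histone-binding RBBP7 had 6 with a highest of 14, GATAD2A 6 with a highest of 8, CDK2AP1 4 with a highest of 10, and RBBP4 3, of 14, 11 and 8, the highest labelled with the 3' UTR of SYNC. In SWI/SNF, BICRA had 6 with a highest of 9 and PBRM1, a PBAF subunit, 4 of 9, 5, 5 and 5. In the ISWI list CECR2 had 3, of 9, 8 and 8.

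Among INO80/SWR1 and TIP60 partners, TRRAP, a large scaffold of acetyltransferase complexes, had 8 entries. Its highest, 145, was labelled with the end of MIR3609, and the rest ran from 8 to 12. MORF4L2 had 6 with a highest of 23, and RUVBL1, an AAA ATPase, 4 with a highest of 23 at the start site of RUVBL1-AS1. MORF4L1 had 4 with a highest of 13 and YY1 4 with a highest of 9. RUVBL2 had 3 of height 7, with an entry among them labelled with the annotated end of LHB. HELLS, a SNF2 enzyme needed for DNA methylation, had 12, 8 and 8, the highest in an Alu repeat in intron 6 of 22. The lone entries of BCL11B (178, coding exon 4 of 4) and CHRAC1 (126, start site) were far above the members and are named after their values were seen.

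Markers of the labelled cell type were listed. Beside the 31.0% of all protein-coding genes, 8 of 10 stem cell markers had an entry (80%, 44.4 to 97.5), with 16 each in LIN28A and DNMT3B, and POU5F1 and SOX2 had none. Fibroblast or feeder markers had one in 5 of 8 (62.5%, 24.5 to 91.5), namely COL1A1, COL1A2, THY1, FN1 and PDGFRA, where the highest PDGFRA entry was labelled with an intron of GSX2. Neural markers had one in 2 of 5 (40%), mesoderm markers in 1 of 4 (25%) and endoderm markers in 0 of 4, and the intervals of all but the stem cell markers include the share of all genes. Reads of the mouse feeder cells were not separated here, and their part in the remodeler entries was not tested.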

How the data were processed

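Both iCLIP samples share 1 list, deposited with 1 height per peak, a signal in whole numbers not scaled to depth or abundance, and with no columns per sample. Per the file headers, peaks were annotated on hg19 with annotatePeaks.pl of HOMER; BWA, hg19 and FastQC 0.10.1 are named per the submitters' processing notes. The peak caller and its threshold: not given in the sources used here. Positions, other annotation values, expected heights and p-values (1e-100 to 0.05) are the authors' deposited values.

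Entries were assigned to the gene in which they were called, by Entrez identifier, through the RefSeq table of GRCh38.p14 (6677 of 6695 genes matched). The table gave names, spans and small RNA lengths, and its positions were used only to find small RNA genes inside members. No peak was placed by it. Start site distances in the list carried the opposite sign on the minus strand (2231 of 2256 coding entries nearest their own gene's start were negative there, 19 of 2246 on the plus strand) and were turned. Intervals are exact 95% Clopper-Pearson intervals for counting error only (SciPy 1.17.1, pandas 2.3.3). No test was run, since there is 1 list and 1 group. Counting was checked on a simulated list. Members and lists were chosen with earlier results of these data known. Named are members with 3 or more entries or a height of 10 or more, the member with most entries in each family, members with none, and partners with 3 or more; the remaining members complete the counts. No genome was used, so no RNA sequence is printed.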

Additional observations from a re-analysis of the deposited data

How the results depend on the processing

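Of 88 values recomputed under 11 alternatives, 68 stayed within the interval of the reported value or, for counts, within 1.5 times it. No replicate could be left out, because the list pools both, and no paired analysis was possible because there is 1 group. Entries per coding length and the background of long proteins were not run, as protein lengths were not used here. With a deposited p up to the median, 55.8% of members had an entry (17.2% of all genes), with 6 SWI/SNF genes and 1 further SNF2 gene. They had 61 entries with a median height of 10, beside 11 over all protein-coding entries kept. With heights of at least the median, 51.2% did (14.3% of all), with 7 SWI/SNF, 3 ISWI and 0 further SNF2 genes. Their 78 entries had a median height of 10 and a coding share of 67.9%, beside 11 and 54.1% over all protein-coding entries kept. Assigning each position to the gene whose start site was nearest, 51.2% did (29.2% of all), with 3 ISWI, 1 INO80/SWR1 and 0 other ARID genes. There were 48 entries, with a median of 1 per gene (also 1 in all genes) and a coding share of 68.8% (48.8% in all). Only 43 of 133 member entries had the start of their own gene nearest, so this setting moves many to neighbours. Requiring 2 entries gave 55.8% (14.7% of all). Positions called in 1 gene, leaving out repeats and small RNAs (by nearest start or by label), the narrower member list and the settings added after seeing the data (without CHD4 and without CHD9NB) moved no value past these limits. A background of long genes, also added then, changed only the background share, from 31.0% to 55.3%. The member share of 79.1% could not move in that setting, though it is counted among the 68. With 1 height per peak and no reads per sample, no precision can be given for a height.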
